A study of Mus musculus with 3 samples.

Results

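The germline and meiosis genes are 36 genes whose products work in germ cells, and they were measured here in brain. Their members were taken as every non-control probe whose symbol, from the probe's accession or from the authors' deposited table, is in the list, dim probes included. This gave 45 probes, out of 55681 non-control probes for 35591 genes or transcripts, those known only by an identifier included. 42 of the 45 were named through RefSeq and 3 through the authors' table, and 7 of the genes have more than 1 probe.

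The tissue was dorsal cortex, taken from mice on postnatal day 4. The labels give the pups as Brpf1-deficient, marked with the dye Cy5, or wild type, marked with Cy3. Each of 3 two-colour arrays carried 1 sample of each genotype, and the orientation of the dyes was never swapped, so dye and genotype cannot be told apart. The sources used here give no Cre driver or promoter, no strain, sex or litter of the pups, and no treatment. In bulk tissue, fewer cells of a type and less RNA per cell cannot be told apart.

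BRPF1 is a scaffold of histone acetyltransferase complexes. The products of most members act in the testis or ovary: piRNA proteins gather in nuage, cytoplasmic granules near the mitochondria or nucleus, and use small RNAs to silence transposons, while cohesins, synaptonemal complex proteins and recombination enzymes pair and exchange chromosomes in meiosis. In somatic tissue many such genes are kept silent by DNA methylation and by a Polycomb complex that contains the DNA-binding proteins E2F6 and MGA with MAX, so that low or no signal in cortex is the usual state.

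Promoter sequences show what several members have in common beyond their role. RefSeq windows on GRCm38.p6, covering 250 bases before and 50 after a gene's start, were held in 40 windows for 31 of the 36 genes, all but Tdrd6, Piwil2, Spo11, Tex11 and Tex15. They were searched on both strands for GCGGGA, the core of a site of E2F type, and for CACGTG, the E-box bound by MAX dimers. The 6 windows below are those of 4 members past the test's threshold and of Ddx4 and Mael, whose ratios turned sign between arrays. Each is written 5′ to 3′ on the gene's strand, with matches to either motif in capitals.
Tdrd1, chr19:56825959-56826258, + strand: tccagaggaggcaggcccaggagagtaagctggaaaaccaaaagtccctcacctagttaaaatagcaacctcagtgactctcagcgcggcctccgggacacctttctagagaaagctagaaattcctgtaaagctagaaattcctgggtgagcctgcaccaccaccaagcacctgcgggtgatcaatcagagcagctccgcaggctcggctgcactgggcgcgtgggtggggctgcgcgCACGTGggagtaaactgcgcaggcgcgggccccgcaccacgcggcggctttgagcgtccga
Tdrd5, chr1:156303299-156303598, - strand: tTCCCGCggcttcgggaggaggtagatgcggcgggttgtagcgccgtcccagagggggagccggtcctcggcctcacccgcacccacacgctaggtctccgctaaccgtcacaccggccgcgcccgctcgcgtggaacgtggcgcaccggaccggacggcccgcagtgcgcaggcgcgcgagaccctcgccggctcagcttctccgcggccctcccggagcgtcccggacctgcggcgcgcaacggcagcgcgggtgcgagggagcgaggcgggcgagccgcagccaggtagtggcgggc
Ddx4, chr13:112652261-112652560, - strand: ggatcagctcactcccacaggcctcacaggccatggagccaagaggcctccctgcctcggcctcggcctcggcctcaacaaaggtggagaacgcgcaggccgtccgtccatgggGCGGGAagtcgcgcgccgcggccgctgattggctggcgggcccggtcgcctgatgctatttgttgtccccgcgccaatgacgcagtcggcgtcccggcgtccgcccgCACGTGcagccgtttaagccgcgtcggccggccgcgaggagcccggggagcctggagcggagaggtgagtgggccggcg
Mael, chr1:166238695-166238994, - strand: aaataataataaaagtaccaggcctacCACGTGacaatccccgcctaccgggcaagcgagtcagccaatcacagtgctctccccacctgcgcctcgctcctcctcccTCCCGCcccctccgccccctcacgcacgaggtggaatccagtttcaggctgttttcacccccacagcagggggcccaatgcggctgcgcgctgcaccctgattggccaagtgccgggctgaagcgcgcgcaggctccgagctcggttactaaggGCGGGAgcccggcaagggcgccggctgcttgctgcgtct
Stag3, chr5:138280259-138280558, + strand: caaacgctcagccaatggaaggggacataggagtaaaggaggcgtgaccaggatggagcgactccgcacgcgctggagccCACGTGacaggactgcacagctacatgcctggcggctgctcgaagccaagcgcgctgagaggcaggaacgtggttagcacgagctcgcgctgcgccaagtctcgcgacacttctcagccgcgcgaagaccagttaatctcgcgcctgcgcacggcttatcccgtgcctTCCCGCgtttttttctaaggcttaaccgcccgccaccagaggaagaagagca
Sycp2, chr2:178407609-178407908, - strand: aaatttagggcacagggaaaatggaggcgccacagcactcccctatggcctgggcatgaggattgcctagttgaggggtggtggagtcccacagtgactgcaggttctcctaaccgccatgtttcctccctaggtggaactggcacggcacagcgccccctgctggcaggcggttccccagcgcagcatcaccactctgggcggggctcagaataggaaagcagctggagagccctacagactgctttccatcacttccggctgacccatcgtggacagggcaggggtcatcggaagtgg
The E-box CACGTG lay 11 bases before the start in the first Tdrd1 window, 29 bases before it for Ddx4, 170 for Stag3 and 223 for Mael. Ddx4, Mael and Stag3 also hold GCGGGA or its reverse TCCCGC, Tdrd5 holds only TCCCGC, and the Sycp2 window holds neither. Among all member windows 16 of 40 (40.0%), of 14 genes, hold CACGTG, against 7.15% of all 32851 windows of the table and 10.9% of the 14281 windows with at least 10 CpG. GCGGGA or its reverse occurred in 13 member windows (32.5%), of 11 genes, against 20.0% of all windows and 40.3% of those with at least 10 CpG. The member shares are over all 40 windows, of which 31 have at least 10 CpG, so the shares at that limit are not like for like. All 13 windows with GCGGGA or its reverse are among those 31. So are all member windows with CACGTG but that of Dnmt3l, with 4 CpG. 7 genes hold both motifs, 18 hold at least 1, and the motifs did not overlap in any member window. TGACGTCA, the cyclic AMP response element, was found in 0 member windows and in 1.79% of all windows. Member windows are rich in CpG, with a median of 18 against 7 for all windows, and 77.5% have at least 10, against 43.5%. Such matches are letters in a window and were not tested as sites.

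The arrays were alike in quality. Between 57.9% and 58.2% of spots were well above background in Cy5, and between 59.9% and 61.0% in Cy3, by the scanner software's flag, and no spot was saturated. The ratios of the 3 arrays correlated with each other across probes at 0.45, 0.62 and 0.44. The single Brpf1 probe was brighter in Cy5 on every array, by 0.63, 0.73 and 0.96 in the log2 ratio of Cy5 to Cy3 (mean 0.77 ± 0.17, SD, n = 3 arrays), which goes against the label of that channel. The authors' deposited table, which does not state which way its fold change runs, gives -0.80 for the same probe, and 39 of the 41 member spots it lists carry the opposite sign to the ratios used here. The probe's place relative to the deleted part of Brpf1 is not known, so the check does not settle the labels. Differences are therefore given by dye, as brighter in Cy5 (labelled Brpf1-deficient) or in Cy3 (labelled wild type), and the signs below are mostly opposite to those of the authors' table.

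The share of germline genes detected lay near that of all genes or transcripts on the array, below it in Cy5 and above it in Cy3. With a gene counted as detected when a probe was well above background on at least 2 of 3 arrays, 21 of the 36 members (58.3%) were detected in Cy5 and 25 (69.4%) in Cy3. All genes or transcripts, those known only by an identifier included, gave 62.7% in Cy5 and 64.9% in Cy3. A probe's signal says that labelled RNA bound to it above the local background, not which cells made the RNA, and cross-hybridization was not tested.

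Detection differed between the dyes for some members. 21 probes were well above background on all 3 arrays in both channels (46.7%, against 52.9% of all probes), and 13 were never so (28.9%, against 35.7%). 1 probe, that of Mei1, was above background on more arrays in Cy5 than in Cy3 (2.22%, against 1.40% of all probes). 8 probes were so on more arrays in Cy3 than in Cy5 (17.8%, against 6.70%). These 8 are the Tdrd9, Mael, Sycp2 and Syce1 probes and 1 probe each of Tdrd5, Sycp3, Dmc1 and Tex11, and they span the piRNA pathway, the synaptonemal complex and recombination. The 9 genes with no probe above background in either channel are Mov10l1, Piwil2, Piwil4, Asz1, Sycp1, Hormad1, Hormad2, Stra8 and Tex101.

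**Figure D1:**
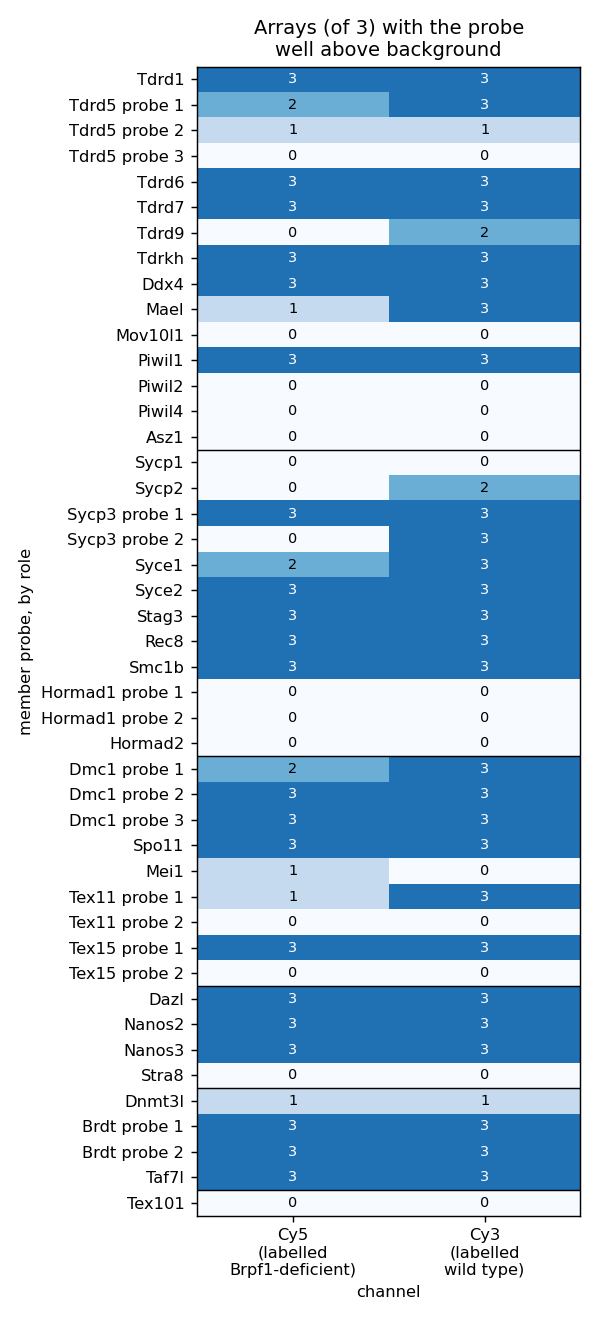
Number of the 3 arrays on which each of the 45 member probes was well above background, in Cy5 (left column) and Cy3 (right column), with probes ordered by role down the page. 21 probes reach 3 arrays in both columns, 13 stay at 0 in both, and 8 have the higher number in Cy3.

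Ratios were tested for all probes together with limma, with Benjamini-Hochberg adjustment and a threshold of 0.05 on the adjusted p. 1 member probe was brighter in Cy5 (2.22% of the 45), where 4.94% of all probes passed, and 4 were brighter in Cy3 (8.89%), where 6.10% of all probes passed. These shares lie near the background, so the counts are not a result about the list. At an unadjusted p under 0.05, 2 member probes were brighter in Cy5 and 12 in Cy3, together 31.1% of the 45, against 28.9% of all probes (13.6% brighter in Cy5 and 15.2% in Cy3). Unadjusted counts for single roles are to be read against these shares. The median log2 ratio of the 45 probes was -0.02, against 0.00 for all probes, and 23 of them (51.1%) had the same sign on all 3 arrays, against 50.8% of all probes. Member probes that passed the test did so with modest differences, the largest that of Tdrd1.

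Of the piRNA and nuage genes, 1 of 15 probes was brighter in Cy5 and 2 were brighter in Cy3. Tdrd1, a Tudor-domain scaffold of nuage that binds the PIWI protein MILI, had normalized log2 intensities of 7.97, 8.63 and 8.29 in Cy5, against 8.84, 8.85 and 9.23 in Cy3. The channels did not overlap, but on array 2 they lay close together. Its log2 ratios were -0.86, -0.22 and -0.94, a mean of -0.67 ± 0.40 (SD, n = 3 arrays) or 1.60-fold brighter in Cy3, with an adjusted p of 0.011 by limma.

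Tdrd5, another Tudor-domain protein needed for transposon silencing in male germ cells, passed on 1 of 3 probes. That probe, named only through the authors' table, had log2 intensities of 7.14, 7.39 and 7.39 in Cy5, against 7.85, 7.59 and 7.75 in Cy3. The channels did not overlap. The log2 ratios of -0.71, -0.20 and -0.36 average -0.42 ± 0.26 (SD, n = 3 arrays), 1.34-fold brighter in Cy3, with an adjusted p of 0.026 by limma. The other 2 Tdrd5 probes gave 0.09 and 0.05 and were above background on 1 array and on 0 arrays in each channel, so the probes of this gene disagree.

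Tdrd6, a component of the chromatoid body of spermatids, was the 1 member brighter in Cy5. Its log2 intensities were 8.07, 7.92 and 7.82 in Cy5, against 7.74, 7.58 and 7.46 in Cy3. On each array Cy5 was the brighter channel by nearly the same amount, while all 3 Cy5 values lay above all 3 Cy3 values. The log2 ratios of 0.34, 0.33 and 0.35 average 0.34 ± 0.01 (SD, n = 3 arrays), 1.27-fold brighter in Cy5, with an adjusted p of 0.018 by limma.

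Ddx4, the mouse homologue of the germ-plasm helicase Vasa, and Mael, a nuage protein of the piRNA pathway, changed sign between arrays. Ddx4 had log2 intensities of 7.80, 8.40 and 7.90 in Cy5, against 8.14, 8.19 and 8.65 in Cy3, with ratios of -0.34, 0.21 and -0.75. Mael had 6.91, 7.76 and 7.27 in Cy5, against 7.37, 7.51 and 7.80 in Cy3, with ratios of -0.47, 0.25 and -0.54. For both genes Cy5 was the brighter channel on array 2 and the dimmer one on arrays 1 and 3, and neither passed the test, with adjusted p of 0.211 and 0.247 by limma.

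The remaining detected piRNA genes had small ratios. Tdrkh, a mitochondrial partner of piRNA trimming, had log2 ratios of -0.34, -0.09 and -0.13. Tdrd7, a chromatoid-body protein that the lens also uses, had -0.05, -0.02 and 0.01. Piwil1, which encodes the PIWI protein MIWI, had 0.21, -0.02 and 0.35. Neither Tdrkh nor Piwil1 passed the test, and Tdrd7 lay at 0 within its spread. The helicase gene Tdrd9, above background on 0 arrays in Cy5 and 2 in Cy3, had 0.02, -0.12 and 0.11 near the background and allows no fold. Mov10l1, Piwil2, Piwil4 and Asz1, which make or hold the piRNA machinery, were never above background.

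In the synaptonemal complex and chromosome axis 0 of 12 probes were brighter in Cy5 and 2 in Cy3 by limma, with 0 in Cy5 and 3 in Cy3 at an unadjusted p under 0.05, against the 13.6% and 15.2% of all probes. Sycp2, a lateral-element protein of the synaptonemal complex, had log2 intensities of 6.88, 6.92 and 6.71 in Cy5, against 7.11, 7.22 and 7.01 in Cy3. The channels did not overlap, but Cy5 was not well above background on any array and Cy3 was so on 2. Its log2 ratios were -0.22, -0.30 and -0.29, measured near the background in Cy5. By these values the probe was 1.21-fold brighter in Cy3, with an adjusted p of 0.040 by limma. That fold is an estimate near the background and not a lower bound. The dimmest signal flagged above background did not exceed the Cy5 value on any array, so the Cy5 value was used as measured.

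Stag3, a cohesin subunit specific to meiosis, had log2 intensities of 8.94, 8.99 and 8.82 in Cy5, against 9.16, 9.21 and 9.33 in Cy3. The channels did not overlap. The ratios of -0.22, -0.21 and -0.51 average -0.32 ± 0.17 (SD, n = 3 arrays), 1.25-fold brighter in Cy3, with an adjusted p of 0.041 by limma. Of the other meiotic cohesin subunits, Rec8 had ratios of 0.32, -0.02 and -0.02 and Smc1b had -0.10, -0.14 and -0.10, and neither passed.

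The genes of lateral and central elements other than Sycp2 did not pass. The Sycp3 probe above background in both channels had log2 ratios of -0.01, -0.17 and -0.21. Its other probe, above background in Cy3 on 3 arrays and in Cy5 on 0, had -0.36, -0.24 and -0.16. That is a difference of 1.19-fold towards Cy3, measured near the background in Cy5, with an adjusted p of 0.060 by limma, just outside the threshold. Syce1, a central-element protein, had 0.46, 0.20 and -0.10. Its partner Syce2 had 0.05, 0.15 and 0.01. The Sycp1, Hormad1 and Hormad2 probes, for the transverse filament and the axis, were never above background.

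Of the recombination genes 0 of 9 probes passed the test in either direction by limma, and 4 had an unadjusted p under 0.05, all 4 brighter in Cy3, as 15.2% of all probes were. Spo11, the enzyme that makes the breaks that start meiotic recombination, had log2 intensities of 7.24, 7.58 and 7.78 in Cy5, against 7.88, 7.60 and 8.17 in Cy3. The channels overlapped. Its ratios of -0.64, -0.02 and -0.39 average -0.35 ± 0.31 (SD, n = 3 arrays), with an adjusted p of 0.064 by limma.

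Dmc1, the meiotic strand-exchange recombinase, has 3 probes that disagree in sign. The first had log2 ratios of 0.17, 0.03 and -0.12. The second had -0.20, -0.20 and 0.19. The third had -0.63, -0.10 and -0.15, with no call. Tex15, a factor of double-strand break repair in spermatocytes, had -0.36, -0.08 and -0.12 on its detected probe, and its other probe, never above background, fell just outside the threshold with a log2 ratio of -0.26 and an adjusted p of 0.054 by limma. That probe passed in 4 of 9 alternative settings, with adjusted p between 0.022 and 0.817 over the 9. Tex11, an X-linked crossover protein, had -0.16, -0.28 and 0.01 on its detected probe. Mei1 and the remaining Tex11 probe were above background on at most 1 array in a channel.

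Genes of germ cell fate and RNA control also gave 0 calls by limma among 4 probes, with 1 at an unadjusted p under 0.05, against 28.9% of all probes. Dazl, an RNA-binding protein that promotes translation in germ cells, had log2 ratios of -0.34, -0.27 and -0.10, with an adjusted p of 0.078. Nanos2, which keeps male germ cells out of meiosis, had 0.09, 0.26 and -0.07, and Nanos3, which primordial germ cells need to survive, had 0.24, -0.03 and 0.08. The Stra8 probe, for the inducer of meiotic entry, was never above background.

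Chromatin and transcription members gave 0 calls by limma among 4 probes, with 2 at an unadjusted p under 0.05, against the same 28.9%. Taf7l, an X-linked germ cell paralogue of a TFIID subunit, had ratios of -0.27, -0.18 and -0.22, with an adjusted p of 0.076 by limma. The small spread is over 3 arrays of 1 dye orientation. Brdt, a testis bromodomain protein, has 2 detected probes, with ratios of -0.02, 0.08 and 0.22 and of 0.15, 0.34 and 0.07. Dnmt3l, the cofactor of de novo DNA methylation in germ cells, was above background on 1 array in each channel, and the 1 probe of Tex101, a germ cell surface protein, on none. In all, 16 of the 45 probes were above background on fewer than 2 arrays in both channels and did not pass, and their mean log2 ratios ran between -0.26 for Tex15 and 0.19 for Mei1.

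**Figure D2:**
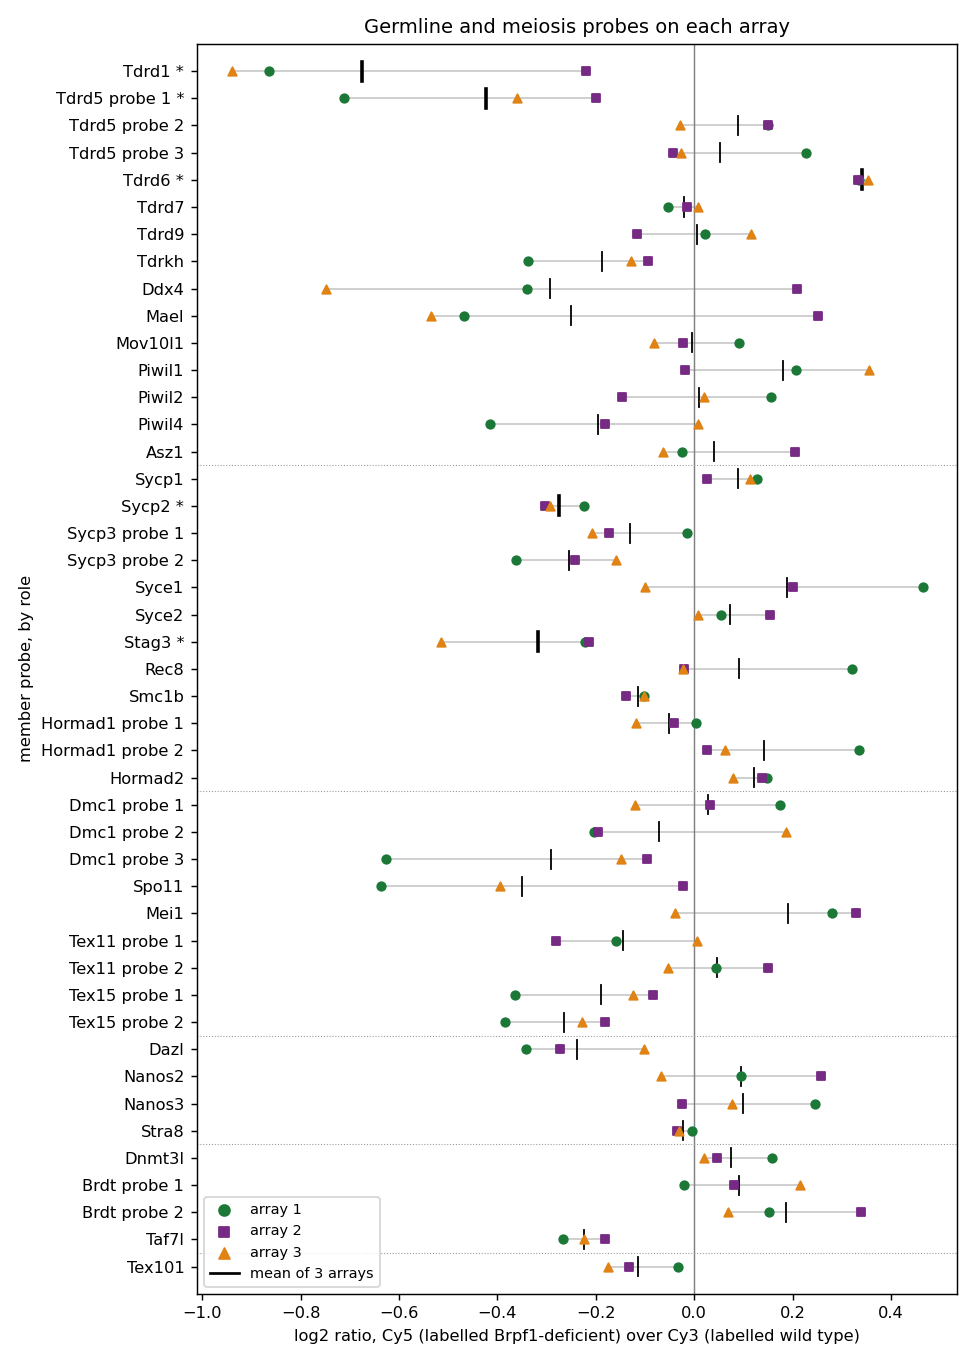
Log2 ratios of Cy5 (labelled Brpf1-deficient) over Cy3 (labelled wild type) of the 45 member probes, ordered by role with dotted lines between roles, as 1 symbol per array and a black bar for the mean of 3. The 5 starred probes passed the test; 4 of them lie left of 0 and Tdrd6 lies right of it, and array 2 stands apart for Tdrd1, Ddx4 and Mael.

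**Figure D3:**
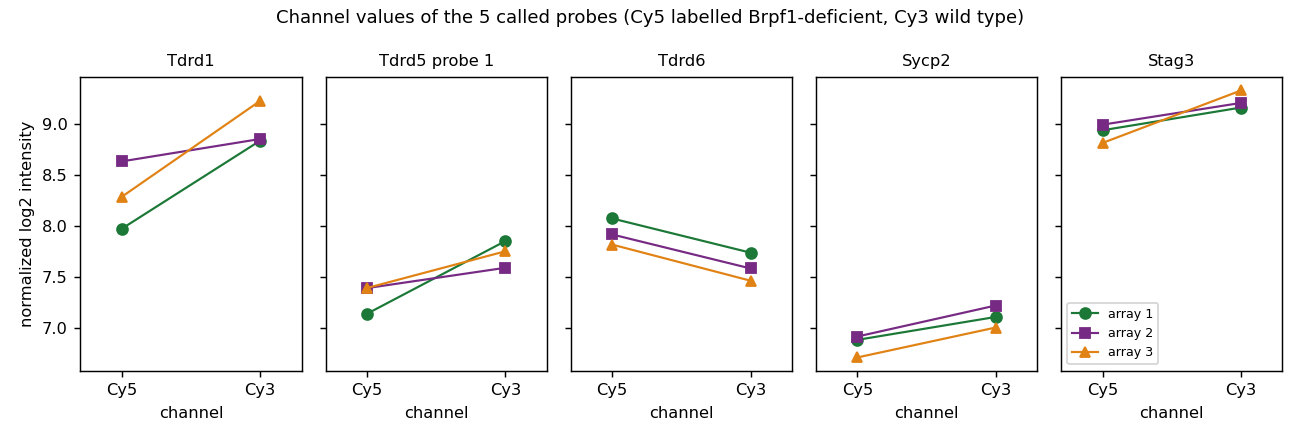
Normalized log2 intensity of the 5 called probes in Cy5 (left, labelled Brpf1-deficient) and Cy3 (right, labelled wild type), with a line joining the channels of each array. Every line rises towards Cy3 except those of Tdrd6.

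The 5 calls rest on small differences and on the processing. With the scanner software's processed signals 0 of the 45 probes passed by limma, although 17 had an unadjusted p under 0.05 (37.8%, against 38.8% of all probes), and of the 41 member spots in the authors' deposited table none (0) had an adjusted p under the threshold and 9 an unadjusted p under 0.05. The smallest adjusted p in the authors' whole table, by limma, was 0.159, so no list could have a call there. The 9 spots have no share over all probes beside them and are not a result about the members. Without array 3, 0 probes were brighter in Cy5 and only Tdrd1 and the Tdrd5 probe passed in Cy3.

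A group of members differed from array to array together. For Ddx4, Mael, Tdrd1 and Spo11, the mean ratio of arrays 1 and 3 minus the ratio of array 2 was -0.75, -0.75, -0.68 and -0.49 on the log2 scale. The shares of all probes with a value as low were 0.142%, 0.145%, 0.237% and 0.999%. The 4 genes were picked for this pattern, so these shares describe them and test nothing. Without array 2, Ddx4, Mael, Spo11 and 1 Dmc1 probe passed as brighter in Cy3 and Sycp2 no longer did, which makes 7 probes in place of 4. Over the whole array that count also rose, to 4010 of 55681 probes in place of 3395. Over all 45 probes array 2 had the highest ratio in 17 (37.8%, against 32.3% of all probes) and the lowest in 12 (26.7%, against 30.7%), so the pattern was not one of the whole list.

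Sex-linked transcripts turned on the same array. Xist, the RNA that coats the inactive X chromosome in females, had log2 ratios of 4.24, -4.83 and 5.18. The Y-linked Ddx3y had -5.33, 5.44 and -5.56, and Eif2s3y, also Y-linked, had -6.57, 5.88 and -6.30. Xist was thus bright in Cy5 on arrays 1 and 3 and in Cy3 on array 2, with the Y-linked genes the other way round. By these transcripts the samples paired on each array differed in sex, so on any 1 array sex, genotype and dye cannot be told apart. The part of this difference in the members' ratios was not tested. Of the X-linked members, Taf7l had -0.27, -0.18 and -0.22, and the detected Tex11 probe had -0.16, -0.28 and 0.01. The other Tex11 probe, never above background, had 0.04, 0.15 and -0.05. Array 2 was thus highest for Taf7l and for the undetected Tex11 probe, and lowest for the detected one.

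Markers of other cells were read beside the members, as sums of normalized intensity over a list. Their calls count 1 probe per gene. Counted so, 5.61% of all genes or transcripts passed by limma as brighter in Cy5 and 6.31% in Cy3. At an unadjusted p under 0.05 the shares were 14.7% and 15.3%. Cortical excitatory neuron markers were above background in both channels for 11 of 11 genes, with sums of 268279 to 276784 in Cy5, against 253628 to 266915 in Cy3, and 4 were brighter in Cy5 and 1 in Cy3. Emx1, the transcription factor that marks the dorsal telencephalon, had log2 ratios of 0.65, -2.72 and -2.65 and was above background on 2 arrays in Cy5 and 3 in Cy3, so array 1 differed from the others there. Striatal markers were brighter in Cy5 for 7 of 9 genes and in Cy3 for 0, with sums of 80039 to 88256 in Cy5, against 35041 to 68065 in Cy3. Their median ratio was 1.00, 0.24 and 0.62 on the 3 arrays, so array 2 also had the smallest difference there. Erythroid markers were brighter in Cy5 for 4 of 7 genes, with sums of 312755 to 442316 in Cy5, against 108960 to 272572 in Cy3 and medians of 0.12, 0.52 and 1.67 on the 3 arrays. Choroid plexus and ependymal markers passed for 0 of 6 genes by limma, with 2 in Cy5 and 0 in Cy3 at an unadjusted p under 0.05. They had sums of 4432 to 72041 in Cy5, against 17345 to 67042 in Cy3. Medians on the 3 arrays were -0.26, 0.55 and 0.13, so array 2 was the highest there, as it was for Ddx4, Mael, Tdrd1 and Spo11.

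Markers of gonadal somatic cells were included as the neighbours of germ cells. 11 of 12 were on the array and 2 were brighter in Cy5, where 5.61% of all genes or transcripts passed. The granulosa regulator Foxl2 had a mean log2 ratio of 0.48. The steroid enzyme gene Cyp11a1 was 1.31-fold brighter in Cy5, with Cy3 above background on 0 arrays. The sums were 20030 to 25149 in Cy5, against 15937 to 16992 in Cy3. They mostly reflect Foxl2, with mean normalized log2 intensities of 14.03 in Cy5 and 13.55 in Cy3. The next brightest marker, Inha, had 11.64 and 11.50. Amh and Hsd3b1 were not above background in either channel on any array. The part of these marker differences in the members' ratios was not tested.

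**Figure D4:**
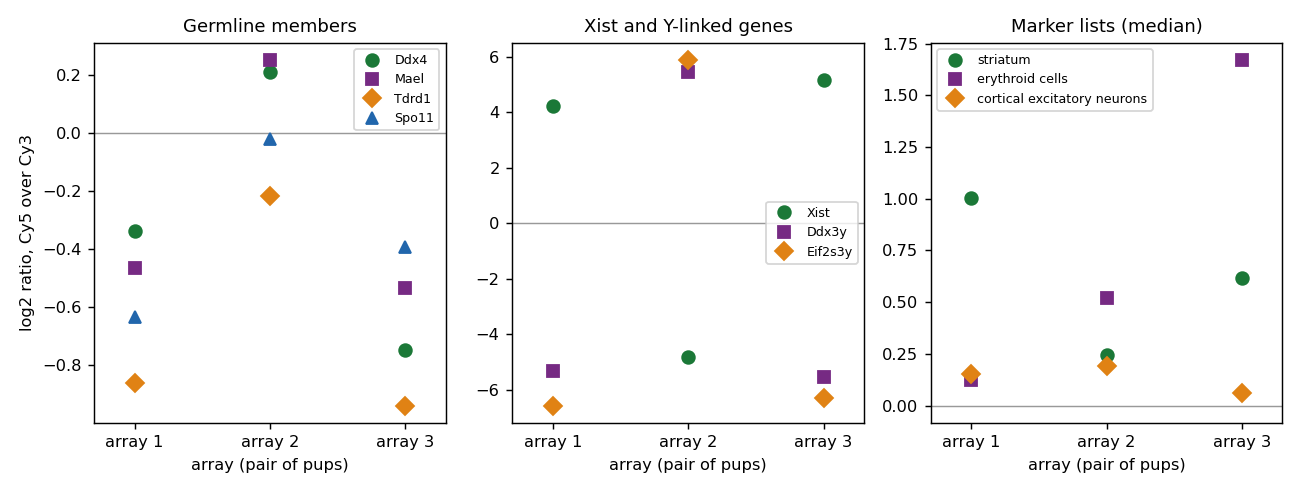
Log2 ratios of Cy5 over Cy3 on each array for 4 germline members (left), for Xist and 2 Y-linked genes (middle), and as medians over 3 marker lists (right); the vertical scales differ. Array 2 lies above arrays 1 and 3 for the 4 members and for the Y-linked genes, and below them for Xist.

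Other genes of the same pathways were counted with 1 probe per gene, the brightest. Over all 35591 genes or transcripts so counted, 5.61% passed as brighter in Cy5 and 6.31% as brighter in Cy3, and 14.7% and 15.3% did so at an unadjusted p under 0.05. The 17 further piRNA and nuage genes gave 3 calls in Cy5 and 0 in Cy3 by limma, with 6 in Cy5 and 2 in Cy3 at an unadjusted p under 0.05, and the list's median log2 ratio was 0.12. Henmt1, the methyltransferase that finishes piRNA 3′ ends, had ratios of 0.50, 0.47 and 0.24, a mean of 0.40 with an adjusted p of 0.015 by limma. Pld6, a mitochondrial protein of piRNA biogenesis, had 0.54, 0.19 and 0.46. Kif17, a kinesin that the brain also expresses, had 0.44, 0.21 and 0.25, and all 3 genes were above background in both channels on every array.

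The 32 further meiotic genes gave 2 calls in Cy5 and 2 in Cy3, with a median of -0.01. Ccna1, the cyclin of the male meiotic divisions, had 0.81, 0.51 and 0.38, and Iho1, a factor for meiotic break formation, had -0.58, -0.31 and -0.66. Hfm1, a crossover helicase, had -0.25, -0.24 and -0.46. Spata22, a recombination protein brighter in Cy5, was never above background, so its difference has no fold.

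Germ stem cell, primordial germ cell and oocyte genes gave 1 of 29 brighter in Cy5 and 2 in Cy3, with a median of 0.09. Gfra1, the GDNF receptor of spermatogonial stem cells and of neurons, had log2 ratios of 0.28, 0.20 and 0.36. The oocyte growth factor gene Gdf9 had -0.22, -0.33 and -0.28. Its partner Bmp15, above background in Cy3 on 3 arrays and in Cy5 on 0, was 1.26-fold brighter in Cy3, measured near the background in Cy5. Post-meiotic sperm genes gave 0 of 30 in either direction by limma, with 2 in Cy5 and 1 in Cy3 at an unadjusted p under 0.05 and a median of 0.02.

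Repressors of germline genes, among them E2f6, Mga, Max and the DNA methyltransferases, were above background in both channels for 27 of 28 genes. By limma 0 passed as brighter in Cy5 and 1 as brighter in Cy3, with 2 of the 28 in Cy5 and 9 in Cy3 at an unadjusted p under 0.05, against the 14.7% and 15.3% of all genes, and their median log2 ratio was -0.07. The 1 gene was Atrx, an X-linked chromatin remodeller, with ratios of -0.73, -0.31 and -0.39 and an adjusted p of 0.013 by limma.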

How the data were processed

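Per the labels' protocols, 350 ng of each total RNA was amplified once, dye-coupled and hybridised to two-colour Agilent arrays. Feature Extraction 10.7.3.1 read the deposited intensity of each spot and its background in both colours, without normalization, and derived dye-normalized processed signals and their log10 ratio, per the file headers. The authors' deposited table gives log2 fold changes, p-values and test scores (moderated t and log odds), made with limma per the submitters' processing notes; its log2 values and p-values were used and its scores were not.

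Median intensities were corrected with normexp (offset 50), normalized by loess within arrays and, for channel values, by quantiles of average intensity, in limma 3.58.1 (R 4.3.3). An intercept was fitted to log2 Cy5 over Cy3 for 55681 non-control probes on 3 arrays, with two-sided moderated tests and Benjamini-Hochberg adjustment at 0.05. The 3 arrays share 1 slide and 1 scan. Each array pairs both genotypes, so its ratio is the paired difference. That ratio also holds the difference in sex given above, and no sex term was fitted. Probes were named by RefSeq accession (27656), otherwise by the authors' table (4049) or their own identifier (23976). The fit was tested on simulated data with known log2 ratios. It recovered 0 of 67 changed probes at a ratio of 0.5, 35 of 67 at 1 and 62 of 66 at 2, with 2 false calls. A member probe that did not pass may therefore still differ. The simulation changed 200 of 55681 probes, while 2752 and 3395 were called in the data. The adjustment is stricter when fewer probes change, so these recoveries and false calls do not measure the fit to the data. The number of arrays limits the precision, and since nothing says that the pairs came from separate litters, p-values refer to these arrays only. The moderated test draws each probe's variance towards that of all probes. A p-value therefore does not measure the probe's own SD alone, and a small p can stand beside a wide SD. The members and gene lists were chosen with earlier results of these data known. Array values were to be given for member probes that passed the test or were above background on at least 2 arrays in a channel, and up to 4 called genes per pathway list. Ddx4, Mael, Tdrd1 and Spo11 were grouped after their values were seen. Alternatives covered the background correction, offset, centring, intensity bins, dim probes, variance trend, 1 probe per gene, each array left out and the authors' table.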

Additional observations from a re-analysis of the deposited data

How the results depend on the processing

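The ratios of the 5 called probes and the members' median kept their sign in every setting fitted here. The authors' table, whose direction is not stated, gave the opposite sign for all 5 and for 39 of its 41 member spots. The 1 member probe brighter in Cy5 became 0 with processed signals and likewise 0 among the authors' deposited values, and it was 0 to 1 with an array left out. The 4 brighter in Cy3 became 0 with processed signals, 0 among the authors' values and 1 with an offset of 16, and 2 to 7 with an array left out. Both counts of 0 among the authors' values were fixed beforehand, since no adjusted p in that table lies under the threshold. Processed signals called 8 probes of the whole array in Cy5 and 32 in Cy3, an offset of 16 called 1000 and 1187, and without array 3 there were 1672 and 2493, against 2752 and 3395 in the reported setting. The share of calls in Cy5 was 66.7% with median centring and 20.0% with processed signals, against 44.8%. The members' median was -0.072 with processed signals, -0.049 without background subtraction, -0.10 with median centring and -0.13 over the 29 probes that pass the dim filter. With processed signals the further piRNA, meiotic, germ stem cell and repressor lists each had 0 calls, against 3, 4, 3 and 1. Median centring gave 1 call among sperm genes and 3 among repressors. With an array left out, calls ran from 1 to 4 for piRNA, 3 to 6 for meiotic, 1 to 6 for germ stem cell, 0 to 1 for sperm genes and 1 to 2 for repressors. The causes were not tested. Of 11 alternatives, Tdrd1 passed in 10, Tdrd6 in 9, Tdrd5 in 8, Stag3 in 7 and Sycp2 in 6. Adjusted p ranges by limma were 5.5e-09 to 0.123 for Tdrd1, 0.0179 to 0.0986 for Tdrd6 and 0.000511 to 0.123 for Tdrd5. They were 0.0219 to 0.253 for Stag3 and 0.0380 to 0.158 for Sycp2. The lowest values of Tdrd1, Tdrd5 and Stag3 came from arrays 1 and 3 alone, without array 2, where each had its smallest difference. The next lowest by limma were 0.0105 for Tdrd1 and 0.0231 for Tdrd5, both with intensity bins set to 0. The Tex15 probe just outside the threshold (-0.26, adjusted p of 0.054) passed without background subtraction (0.0485), with median centring (0.0223), with intensity bins set to 0 (0.0494) and with a variance trend (0.0495). A block for the slide was not run, since all arrays share 1. The authors' table gave no median, since it lists only part of the probes. Weak signal over background limits Sycp2 and the undetected members.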
